A study of Oncorhynchus mykiss with 6 samples.

Results

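Among the long non-coding RNAs (lncRNAs) assembled from rainbow trout liver that had complete exon records, 55 overlap exons of an annotated gene under class code o or x. They were selected by the class code of the assembly. Code o marks a transcript that overlaps a reference exon in some other way than by sharing a splice junction, and code x marks one that overlaps an exon from the opposite strand, so that it is antisense to the host gene. There were 41 transcripts of class o and 14 of class x, of 224 assembled transcripts with complete exon records. Transcripts that share a known junction also overlap exons of annotated genes, under another code, and are not among the 55. In all, 927 assembled lncRNAs and 5916 lncRNAs of every kind were listed. Assembled lncRNAs without a complete exon record were not classed here, so more of class o or x may be among them.

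An antisense lncRNA is read from the strand opposite to its host gene, and in other species such RNAs are known to act on the host in several ways or not at all. A same-strand transcript that overlaps exons can be an independent RNA, an unspliced or truncated form of the host's own RNA, or a transcript that joins exons of the host to a distant one. The liver makes most plasma proteins, including many that defend against bacteria, and warming is a strong stressor of salmonids.

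The heat group was held in water that was warmed by 1 °C every 24 h until it reached 24 °C, and the control group stayed at 18 °C. The fish (Oncorhynchus mykiss) were female and 150 days old and each group had 3 libraries. The labels name no strain. Livers of 12 fish are named and the RNA is described as mixed, without a map of fish to libraries. Each library may thus be a pool, and p-values cover only the spread between libraries, which may be technical. All 55 transcripts had values in 3 libraries, heat replicate 2 and control replicates 2 and 3. The tables held here for heat replicates 1 and 3 and control replicate 1 end before the assembled transcripts, which were treated as not measured there.

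Heat replicate 2 therefore stood alone against a pair of controls, and no spread within the heat group could be measured for any of the 55. The authors' counts, FPKM values (fragments per kilobase per M, where M is 1000000 sequenced fragments) and exon lengths implied library totals of 28.3 M fragments in heat replicate 2, against 29.96 and 28.6 M in control replicates 2 and 3. By counting error alone, 0 reads allow a level of 0.106 reads per M fragments in the heat library, and of 0.1001 and 0.105 in the controls. The tables list lncRNAs and no messenger RNA, so neither the liver label nor the level of any host gene could be checked in them. The extraction text of the labels names retinas, whereas the tissue label is liver. Of 21 lncRNAs called changed over the whole table, 4 were also listed in the other 3 libraries. For all 4, heat replicates 1 and 3 both lay on the called side of control replicate 1. The share of the 297 tested lncRNAs listed there that lay on one side was not computed, so no support is drawn from the 4. All 4 are known lncRNAs, so they say nothing about the 55.

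Each of the 55 transcripts had a host gene, 54 distinct genes in all, since LOC110506870 hosts a pair of class o transcripts. For 46 of the 55 transcripts the host was found by gene identifier in the reference gene table of RefSeq, and in all 46 it is protein-coding. The host had a descriptive symbol in 10 of these 46 transcripts and a LOC symbol, for which no function is stated here, in 36. None of the 46 was matched to a gene of 7 pathway lists (heat shock and chaperones, liver secreted proteins, lipid and sterol, RNA processing, translation, immune, proteasome and ubiquitin). None was matched to 6 marker lists either (hepatocyte, erythrocyte, retina, pancreas, endothelium, leukocyte). None of the 224 assembled transcripts was matched to any of these lists, so the match says nothing about the classes. A host under a LOC symbol could have been missed, and the lists do not hold the host genes lbp/bpi-2, rel and ank1b described below.

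Most transcripts of both classes had few exons. In class o, 38 of 41 transcripts had 2 exons and 3 had 3. In class x, 13 of 14 had 2 exons and 1 had 3. The share with 2 exons was 92.7% in class o and 92.9% in class x, beside 46.3% of the 54 transcripts that share a known junction (class j) and 73.0% of the 115 intergenic ones (class u). Both strands were used, with 14 class o transcripts on the plus strand and 27 on the minus strand, and 7 of class x on each.

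The exons of class o transcripts lay far apart. The longest intron of a class o transcript had a median of 56977 bases and reached 291066 bases, with 177 bases as the lowest value. That of a class x transcript had a median of 1813.5 bases, with a range of 56 to 9294 bases. In class o, 15 of 41 transcripts had an intron over 100000 bases, whereas 0 of 14 in class x, 0 of 54 in class j and 0 of 115 in class u did. The medians of class j and class u were 1829 and 536 bases. The class codes are fixed by position relative to known exons, and the limit of 100000 bases was chosen after the lengths were seen, so these are descriptions without a test.

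**Figure D1:**
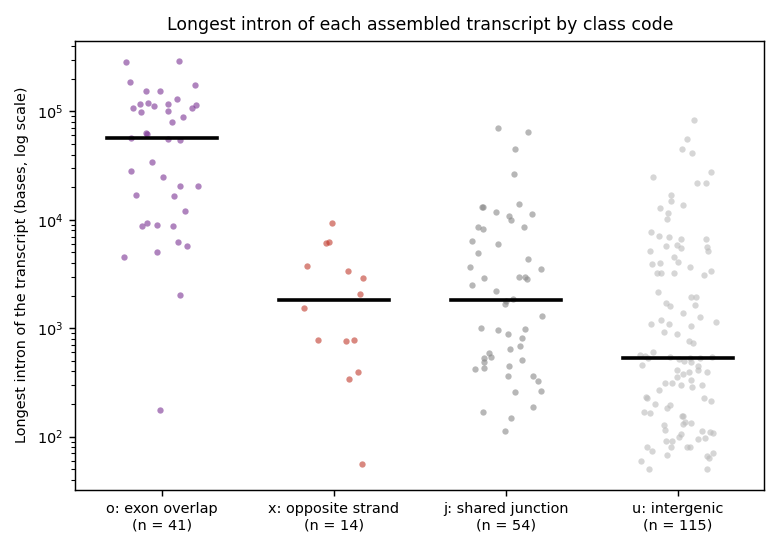
Longest intron of each assembled transcript (bases, log axis) by class code, 1 point per transcript, with the median as a black line. The class o points centre on 56977 bases and those of class x on 1813.5 bases.

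Class o transcripts were also short once spliced. Their exons summed to a median of 647 bases, against 1296.5 bases in class x, and 5 of the 41 had under 300 exon bases. TCONS_00089644, hosted by LOC110495553, joins an exon of 575 bases to one of 18 bases across 291066 bases (NC_035094.1, 7120600 to 7412258, minus strand). TCONS_00089650, whose host has the gene identifier 110495552, lies on the same strand and shares 212128 bases of that span. Its exons of 57 and 249 bases lie 287520 bases apart. All coordinates are as the exon table gives them, on chromosome sequences whose build the labels do not name.

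There were 2 further pairs of class o transcripts with overlapping spans. TCONS_00115344 and TCONS_00115341, both on the minus strand with LOC110506870 as host, share 58412 bases of NC_035102.1. The first has exons of 301 and 592 bases (34034764 to 34098314 in all), and the second has 3 exons of 105, 64 and 594 bases (33983956 to 34093175 in all). TCONS_00091836 and TCONS_00093696, hosted by LOC110497294 and LOC110497292, lie on opposite strands of NC_035095.1 and share 47653 bases of span. Of the 55 transcripts, 1 had an exon that overlapped an exon of another of the 224 assembled transcripts with exon records. Overlap with assembled lncRNAs outside these records could not be seen.

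**Figure D2:**
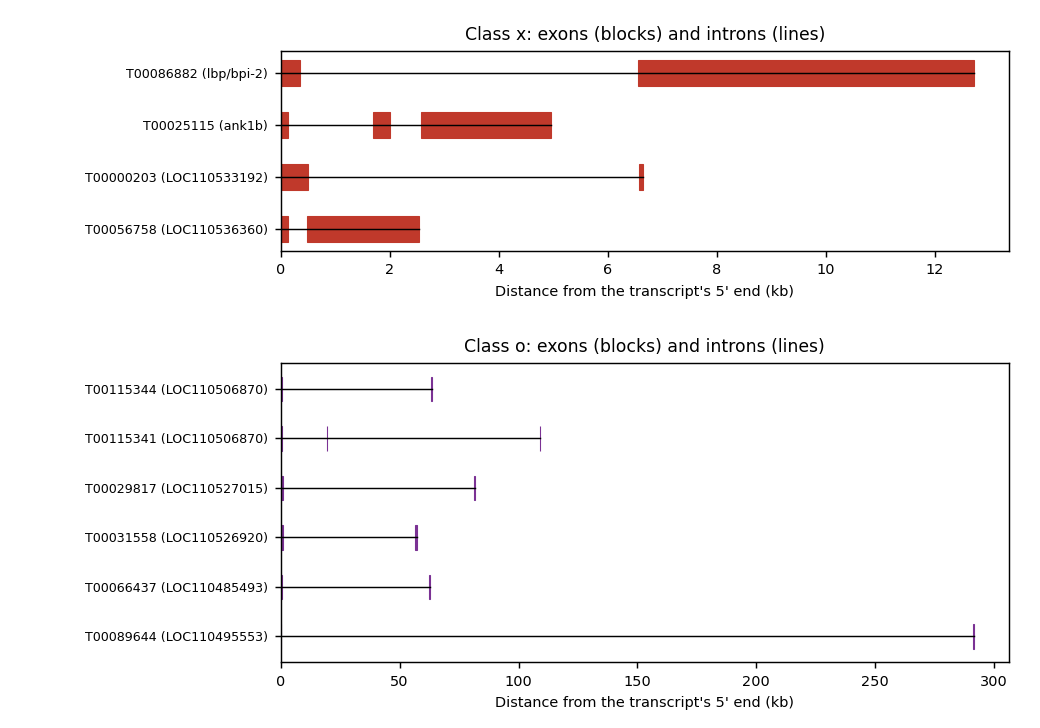
Exons (blocks) and introns (lines) of 4 class x and 6 class o transcripts, drawn to scale from the 5′ end in kb, with T in place of TCONS_ and the host gene in brackets. The class x transcripts span under 13 kb, and TCONS_00089644 of class o spans 291659 bases. The transcripts drawn were chosen after their values were seen.

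Most of the 55 transcripts were weakly expressed. Of class o, 33 of 41 had a read in heat replicate 2, against 34 and 34 in control replicates 2 and 3. Of class x, 11 of 14 had a read in heat replicate 2, against 11 and 9 in the controls. The median over class o was 0.35 FPKM in heat replicate 2 and 0.51 and 0.56 FPKM in the controls, and over class x 0.20 FPKM in heat replicate 2 and 0.27 and 0.10 FPKM in the controls. An FPKM of at least 1 in some library was reached by 19 class o and 4 class x transcripts. The mean level over the 3 libraries had a median of 0.557 FPKM in class o and 0.295 FPKM in class x, beside 0.323 FPKM over all 927 assembled lncRNAs.

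Summed over class o, heat replicate 2 held 31.3 reads per M fragments and the controls 44.9 and 41.3. Scaled by TMM factors, the trimmed-mean scaling of edgeR, the sum was 282 reads per M scaled table reads in heat replicate 2, against 304 and 313 in the controls. The heat library was the lowest on both scales, but on the TMM scale this rested on TCONS_00029817, which held 28.3% and 20.8% of the class o reads in the controls. Without it the TMM-scaled sum was 249.7 in heat replicate 2, against 218 and 248 in the controls, and the sum per M fragments was 27.7 in heat replicate 2, against 32.2 and 32.8, so no direction is given for the class. For class x the sum in heat replicate 2 was 27.98 reads per M fragments, against 27.96 and 15.3 in the controls, and on the TMM scale it was 252 in heat replicate 2, against 189.5 and 115.6. Most of that came from a single transcript per group, which was the lncRNA antisense to lbp/bpi-2 in heat replicate 2 (77.3% of the class) and the one antisense to ank1b in control replicates 2 and 3 (68.8% and 67.5%). Without TCONS_00086882, the one antisense to lbp/bpi-2, the heat library was the lowest on the TMM scale, at 57.2, against 185 and 111 in the controls. Without TCONS_00025115, the one antisense to ank1b, the heat library was the highest, at 246.41, against 59.15 and 37.53 in the controls. No direction is therefore given for class x either.

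**Figure D3:**
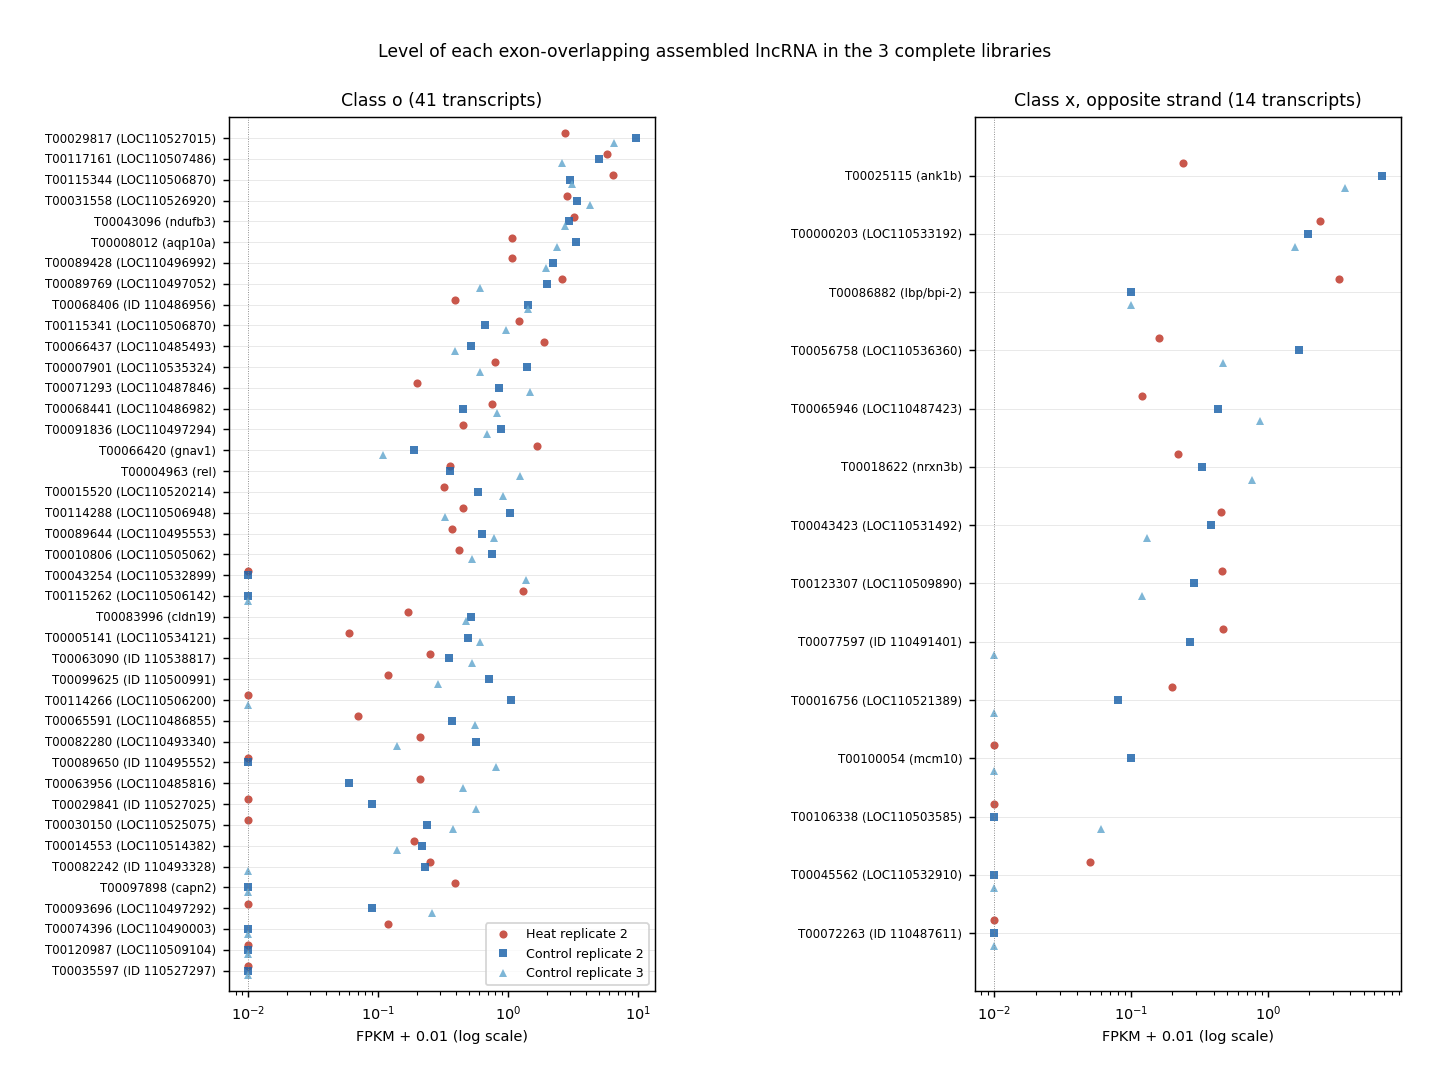
FPKM of each of the 41 class o and 14 class x transcripts (FPKM + 0.01, log axis; points at the dotted line are at 0) in heat replicate 2 and control replicates 2 and 3, ordered by mean level, with T in place of TCONS_ and the host gene in brackets. The lncRNA antisense to lbp/bpi-2 stood at 3.31 FPKM in the heat library and 0.09 FPKM in both controls, and the one antisense to ank1b at 0.23 FPKM in the heat library and 6.80 and 3.65 FPKM in the controls.

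The value assigned to the lncRNA antisense to lbp/bpi-2 was higher in the heat library than in both controls. The host encodes a protein of the family of lipopolysaccharide-binding and bactericidal permeability-increasing proteins, which bind bacterial lipopolysaccharide. TCONS_00086882 is the longest of the 55, with 6533 exon bases, in an exon of 6172 bases and one of 361 bases (NC_035093.1, 61996307 to 62009031, minus strand). It stood at 3.31 FPKM (612.05 estimated reads) in heat replicate 2, against 0.09 FPKM in both control replicates 2 and 3 (18.60 and 17.05 reads).

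The log2 fold change of TCONS_00086882 was 5.46 ± 0.49 SE, and it passed edgeR's quasi-likelihood test (adjusted p = 0.023 over all 1511 lncRNAs tested). Against control replicate 3 alone it was 5.43 and against control replicate 2 alone 5.49, where no test is possible. With the implied library totals in place of TMM factors the value was 5.13 and the call was lost (edgeR adjusted p = 0.076), as it was with limma on log2(FPKM + 0.1), where the value was 4.17 (adjusted p = 0.29). All its counts were fractional, as estimated counts can be where reads are divided between transcripts, but where the fractions come from was not tested. A fractional count in some library was found in 3 of 14 class x and 6 of 41 class o transcripts. It was found in 41 of 54 transcripts of class j and 30 of 115 of class u. Whether strand was used in counting is not stated in the labels. Reads of lbp/bpi-2 itself therefore cannot be told apart from antisense reads in these values. The same limit holds for the hosts of the other class x transcripts, and for class o reads that fall on host exons. In bulk tissue, more cells of a type and more RNA per cell cannot be told apart either.

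Among transcripts with reads in both groups, the lncRNA antisense to ank1b had the largest fitted difference in the other direction, and it missed the threshold. Ankyrin 1 links the spectrin skeleton to the membrane of red blood cells in mammals. TCONS_00025115 has 3 exons of 2381, 307 and 138 bases (NC_035081.1, 25170766 to 25175715, minus strand). It stood at 0.23 FPKM (18.23 reads) in heat replicate 2, against 6.80 and 3.65 FPKM (576.27 and 295.01 reads) in control replicates 2 and 3. The heat value lay far below both controls, which themselves differed by less than 2-fold.

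Its log2 fold change was -4.18 ± 0.69 SE (edgeR adjusted p = 0.053). With RLE size factors the value was -4.13 and passed (edgeR adjusted p = 0.047), as it did with DESeq2 (-4.14, adjusted p = 8.2e-05) and with looser filters on low counts. With the implied library totals it was -4.53 (edgeR adjusted p = 0.099) and with upper-quartile factors -4.37 (edgeR adjusted p = 0.081). It did not pass with limma either, at -3.95 on log2(FPKM + 0.1) (adjusted p = 0.29), -4.38 on log2(FPKM + 0.01) (adjusted p = 0.27) and -2.29 on log2(FPKM + 1) (adjusted p = 0.34). Its counts were fractional in all 3 libraries too.

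Of the 10 class x transcripts tested, 2 had an edgeR unadjusted p under 0.05, beside 18.1% of all 1511 lncRNAs tested. These 2 are the ones antisense to lbp/bpi-2 and ank1b. The other 8 did not pass in edgeR. DESeq2 called 0 of these other 8 as well, but it gave no adjusted p to TCONS_00065946, TCONS_00018622, TCONS_00077597 and TCONS_00016756. TCONS_00056758, antisense to LOC110536360, stood at 0.15 FPKM in heat replicate 2, against 1.68 and 0.46 FPKM in the controls (log2 fold change -2.49 ± 1.02 SE, edgeR adjusted p = 0.29). The controls differed 3.65-fold there, the widest gap between controls among the 27 transcripts of both classes with at least 10 reads in each control. Without control replicate 2 the log2 fold change was -1.41. TCONS_00000203, antisense to LOC110533192, stood at 2.38 FPKM in heat replicate 2 and 1.96 and 1.57 FPKM in the controls (log2 fold change 0.77 ± 0.69 SE, edgeR adjusted p = 0.61).

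TCONS_00018622 is antisense to nrxn3b, a gene of the neurexins, which are cell adhesion proteins of nerve terminals. It stood at 0.21 FPKM in heat replicate 2 and 0.32 and 0.75 FPKM in the controls. TCONS_00065946, antisense to LOC110487423, stood at 0.11 FPKM in heat replicate 2 and 0.42 and 0.87 FPKM in the controls. In both the heat value was the lowest of the 3, within a fold that the test did not call (edgeR adjusted p = 0.71 and 0.48).

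The heat value was the highest of the 3 in another 4. TCONS_00123307 (LOC110509890) stood at 0.45 FPKM in heat replicate 2 and 0.28 and 0.11 FPKM in the controls, and TCONS_00043423 (LOC110531492) at 0.44 FPKM in heat replicate 2 and 0.37 and 0.12 FPKM in the controls. TCONS_00077597 (gene identifier 110491401) stood at 0.46 FPKM in heat replicate 2 and 0.26 and 0 FPKM in the controls, and TCONS_00016756 (LOC110521389) at 0.19 FPKM in heat replicate 2 and 0.07 and 0 FPKM in the controls. Control replicate 3 was the lower control in each of these 4, and control replicate 2 was close to the heat value in TCONS_00043423. Their edgeR adjusted p lay between 0.48 and 0.63.

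The remaining 4 class x transcripts had too few reads to test. TCONS_00100054 is antisense to mcm10, which encodes a factor of DNA replication initiation, and had 0 reads in heat replicate 2 and 4 and 0 reads in the controls. TCONS_00106338 (LOC110503585) had a single read, in control replicate 3, and TCONS_00045562 (LOC110532910) a single one in heat replicate 2. TCONS_00072263 (gene identifier 110487611) had 0 reads in all 3 libraries.

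Among the 41 class o transcripts, TCONS_00029817 had the highest mean level and ranked 30 of the 927 assembled lncRNAs. Its host is LOC110527015, and its exons of 947 and 369 bases lie 80448 bases apart (NC_035082.1, 80081713 to 80163476, plus strand). It stood at 2.76 FPKM in heat replicate 2, against 9.66 and 6.52 FPKM in control replicates 2 and 3. The heat library was the lowest, but the log2 fold change of -1.20 ± 0.52 SE did not pass (edgeR adjusted p = 0.30). TCONS_00008012 overlaps aqp10a, a gene of the aquaglyceroporins that let water and glycerol through membranes. It stood at 1.06 FPKM in heat replicate 2 and 3.32 and 2.36 FPKM in the controls (log2 fold change -1.05 ± 0.85 SE, edgeR adjusted p = 0.58). Both had fractional counts in every library.

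The pair on LOC110506870 had its highest level in the heat library in both members. TCONS_00115344 stood at 6.41 FPKM in heat replicate 2, against 2.99 and 3.13 FPKM in the controls (log2 fold change 1.39 ± 0.47 SE, edgeR unadjusted p = 0.027, adjusted p = 0.20). TCONS_00115341 stood at 1.20 FPKM in heat replicate 2, against 0.66 and 0.96 FPKM in the controls (log2 fold change 0.89 ± 0.93 SE, edgeR adjusted p = 0.65). The controls agreed closely for the first and less so for the second. The 2 share a host and so are not independent.

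Of the other transcripts among the 10 with the highest mean level in class o, 3 more were higher in heat replicate 2 than in both controls. TCONS_00117161 (LOC110507486) stood at 5.83 FPKM in heat replicate 2 and 5.06 and 2.61 FPKM in the controls. TCONS_00089769 (LOC110497052) stood at 2.60 FPKM in heat replicate 2 and 2.0 and 0.60 FPKM in the controls. TCONS_00043096 overlaps ndufb3, which encodes a subunit of mitochondrial complex I, and stood at 3.20 FPKM in heat replicate 2 and 2.94 and 2.75 FPKM in the controls. In the first 2 of these the gap between the controls was wider than that between heat replicate 2 and control replicate 2.

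A further 3 of these 10 were lower in heat replicate 2 than in both controls. TCONS_00031558 (LOC110526920) stood at 2.85 FPKM in heat replicate 2 and 3.37 and 4.30 FPKM in the controls. Its fitted log2 fold change was -0.11 ± 0.52 SE and took the other sign, 0.17, without control replicate 3, so no direction is given. TCONS_00089428 (LOC110496992) stood at 1.07 FPKM in heat replicate 2 and 2.2 and 1.97 FPKM in the controls. TCONS_00068406, whose host has the gene identifier 110486956, stood at 0.38 FPKM in heat replicate 2 and 1.42 FPKM in both controls (log2 fold change -1.57 ± 0.71 SE, edgeR adjusted p = 0.31).

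The largest fitted differences in class o rested on few reads. TCONS_00066420 overlaps gnav1, a gene of the alpha subunits of heterotrimeric G proteins, and had 17 reads in heat replicate 2, against 2 and 1 reads in the controls (log2 fold change 3.79 ± 1.99 SE, edgeR adjusted p = 0.39). TCONS_00066437 (LOC110485493), on the same strand of NC_035089.1, stood at 1.89 FPKM (49 reads) in heat replicate 2, against 0.51 and 0.38 FPKM (14 and 10 reads) in the controls. Its log2 fold change was 2.41 ± 0.78 SE (edgeR unadjusted p = 0.023, adjusted p = 0.18). The span of the first is 4750583 to 4938679 and that of the second 5000663 to 5063330. Both were named for their high fold changes, so their shared direction was set by that choice and says nothing about the region.

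At the low end, TCONS_00005141 (LOC110534121) had 1 read in heat replicate 2, against 10 and 12 reads in the controls. TCONS_00065591 (LOC110486855) had 1 read in heat replicate 2, against 7 and 10 in the controls. TCONS_00029841, whose host has the gene identifier 110527025, had 0 reads in heat replicate 2, against 2 and 13 in the controls. Most of its control reads came from control replicate 3, so no fold is given. None of these passed the test (edgeR adjusted p = 0.59, 0.69 and 0.59).

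Some class o transcripts had reads in one group and none in the other. With 0 reads in both controls, TCONS_00115262 (LOC110506142) had 8 reads in heat replicate 2, TCONS_00074396 (LOC110490003) had 6, and TCONS_00097898 had 5. The last overlaps capn2, which encodes a calpain, a calcium-dependent protease. By library totals, with 3 counts put in place of 0 for the control group, the heat values were 5.52-fold, 4.14-fold and 3.45-fold higher. The heat counts were taken as exact there, so these folds are not lower limits for counting error. With either control left out the folds fell to between 2.69-fold and 2.82-fold, 2.02-fold and 2.12-fold, and 1.68-fold and 1.76-fold. All 3 transcripts were below the minimum of reads for the test and were named after their values were seen. In the other direction, 6 of the 41 class o transcripts had reads in a control and 0 in heat replicate 2. In 3 of these only a single control library had reads. Reads in a control and 0 in heat were also found in 10 of 54 class j and 26 of 115 class u transcripts. Reads in heat and 0 in both controls were found in 1 of class j and 5 of class u. A transcript counted as absent from heat needed 0 reads in a single library, and one absent from the controls needed 0 in both. The counts of the opposite directions are therefore not comparable. The shares over all lncRNAs were not computed, and these counts are descriptions, without a test.

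Among hosts with a symbol, rel is a transcription factor gene of the NF-kappaB family. TCONS_00004963, which overlaps it, stood at 0.35 FPKM in heat replicate 2, against 0.35 and 1.24 FPKM in the controls. Only control replicate 3 was high, and the fitted log2 fold change was -0.88 with it and 0.41 without it, so no direction is given. TCONS_00083996 overlaps cldn19, a claudin gene of tight junctions, and stood at 0.16 FPKM in heat replicate 2, against 0.51 and 0.47 FPKM in the controls (log2 fold change -1.28 ± 1.25 SE, edgeR adjusted p = 0.62).

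The stated aim of the study was to find lncRNAs induced by heat, and the test of heat over control addresses it here. Enough reads for the test were present in 25 of 41 class o and 10 of 14 class x transcripts. The test called 1 of class x, the lncRNA antisense to lbp/bpi-2, and 0 of class o. DESeq2 called 0 of class o as well, beside 6.08% of the 954 lncRNAs it gave an adjusted p. It gave none to some of the 25 class o transcripts, among them TCONS_00066420, TCONS_00029841, TCONS_00005141, TCONS_00065591, TCONS_00083996 and TCONS_00089644. By edgeR's unadjusted p, 2 of the 25 class o transcripts were under 0.05, beside 18.1% of all 1511 lncRNAs tested. By the unadjusted p of limma on log2(FPKM + 0.1), 7 of the 25 were, beside 255 of all 1511. The order of these shares thus depended on the fit, and none is given for class o. Over all 1511 lncRNAs tested, 1.39% were called, 1.06% higher and 0.331% lower in heat. Heat replicate 2 was alone in its group, so it was assumed to vary as the controls do, and the fit had 1 residual degree of freedom before edgeR shared the spread across transcripts.

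The fitted log2 fold changes had a median of -0.53 in the 25 class o transcripts and 0.99 in the 10 of class x, beside -0.19 over all 1511. They were below 0 in 17 and above 0 in 8 of class o, and above 0 in 6 and below 0 in 4 of class x. The filter could admit a transcript on the reads of a single library, so some entered only through the group where they were high. TCONS_00016756 of class x had 14 reads in heat replicate 2 and 5 and 0 in the controls. TCONS_00029841 of class o had 0 in heat replicate 2 and 2 and 13 in the controls. The medians and signs are thus partly set by the filter, and no direction is read from them. Scaling by the implied library totals moved the median of all tested lncRNAs to -0.54, a shift of -0.35, so a small difference from 0 gives no direction.

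Among transcripts with a read in some library, heat replicate 2 lay above both controls in 11 of 39 class o transcripts (28.2%) and 7 of 13 of class x (53.8%), where 29.2% of all 3096 lncRNAs with a read did. It lay below both controls in 18 of class o (46.2%) and 4 of class x (30.8%), where 32.2% of all did. Among the 876 assembled lncRNAs with a read the shares were 30.7% above and 38.1% below. No minimum of reads was set for these shares. TCONS_00045562 of class x counted as above both controls on 1 read in heat replicate 2 and 0 in both controls. TCONS_00093696 of class o counted as below on 0 reads in heat replicate 2 and 1 and 3 in the controls. These shares are descriptions, with no test. Between the controls themselves, the 27 transcripts with at least 10 reads in each control differed by a median of 1.42-fold, and 7 of the 27 by over 2-fold.

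**Figure D4:**
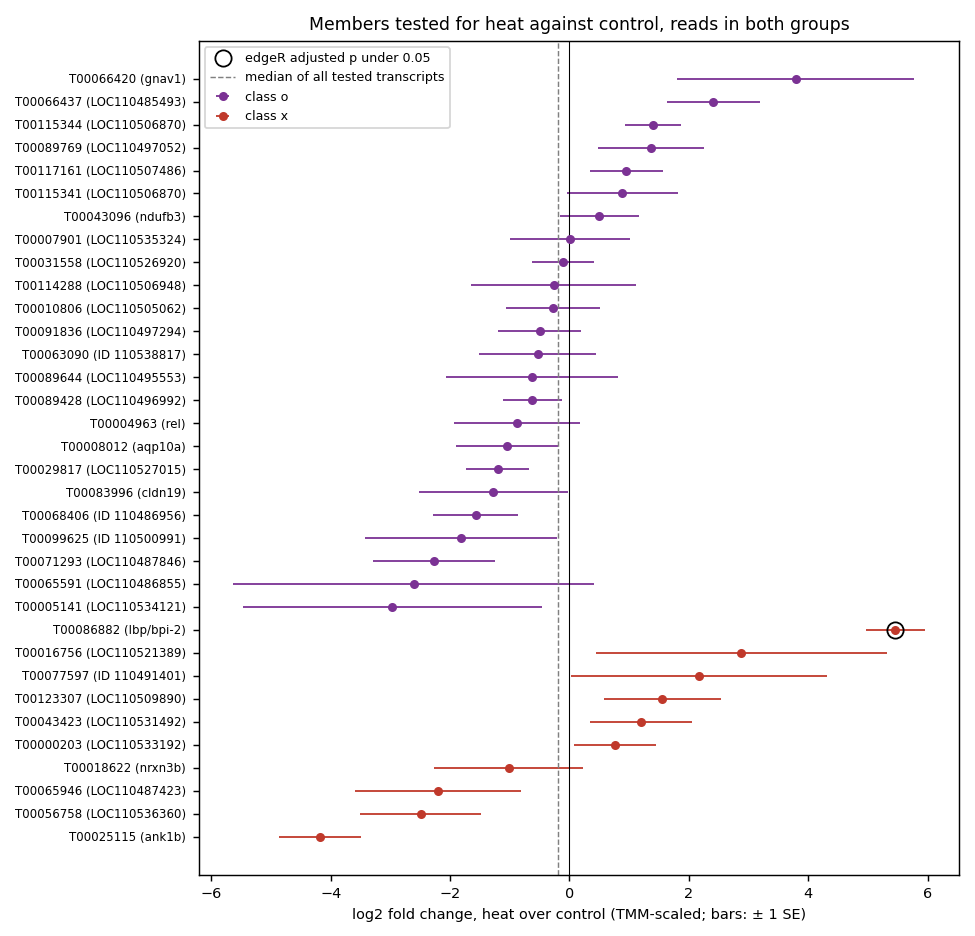
Fitted log2 fold change of heat over control (TMM-scaled, bars ± 1 SE) for the 34 transcripts tested that had reads in both groups, 24 of class o above and 10 of class x below, with T in place of TCONS_ and the host gene in brackets. The lncRNA antisense to lbp/bpi-2 (5.46) is the one circled as passing edgeR's test, the one antisense to ank1b (-4.18) lies at the other end, and the dashed line is the median of all tested lncRNAs (-0.19).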

How the data were processed

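Per the labels' protocols, ribosomal RNA was removed from liver RNA and the second cDNA strand was made with dUTP. The submitters' processing notes name Bowtie2 2.2.8 and TopHat2 2.1.1. The tool that made the counts, the genome build and the strand setting of the counting are not given there. Estimated counts were deposited without normalization, and the deposited FPKM values are per kilobase and per M fragments, per the file headers. Exons and class codes come from the authors' exon table, made with Cufflinks per its source column. Its last transcript, cut off by an incomplete line, was dropped.

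Library totals were the median of count / (FPKM × exon length) over assembled transcripts with at least 100 reads. Counts were rounded and fitted with edgeR 4.0.16 in R 4.3.3 over all lncRNAs of the 3 complete tables (filterByExpr with a minimum count of 10, TMM, robust quasi-likelihood F test, two-sided, Benjamini-Hochberg, threshold 0.05). SE is the log2 fold change divided by the square root of F. DESeq2 1.42.0 and limma 3.58.1 (log2 of FPKM plus 0.1, 0.01 or 1) were alternatives. The pipeline was tested on simulated data. Host genes were matched by identifier to the RefSeq table of another assembly (USDA_OmykA_1.1), used for names only. Named transcripts are all of class x, the 10 of class o with the highest mean FPKM, those called, and the 3 highest and 3 lowest fold changes of class o. Others named (on rel, cldn19 and capn2, the pairs with overlapping spans and those with 0 control reads) were added after their values were seen. The transcripts and lists were chosen with earlier results of these data known.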

Additional observations from a re-analysis of the deposited data

How the results depend on the processing

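Over all lncRNAs the count of calls moved from 21 to 36 with RLE size factors, 6 with upper-quartile factors, 58 with a filter of 5 reads in total, 180 with no filter and 58 with DESeq2. It was 0 with the implied library totals in edgeR (274 at an unadjusted p under 0.05) and 0 with limma at each of the 3 pseudocounts (216 to 255 unadjusted). In class x the count was 1, and it was 2 with RLE size factors, both looser filters and DESeq2, and 0 with the implied library totals and with limma at each pseudocount (2 unadjusted in each). In class o it was 0 in every fit. At an unadjusted p under 0.05 the class o count ran from 0 (DESeq2) to 7 (limma on log2(FPKM + 0.1) and log2(FPKM + 0.01)). The cause of these differences was not tested. Of 309 alternative values for the 29 named transcripts tested, 2 had the other sign (TCONS_00031558 and TCONS_00004963, both without control replicate 3). The values for 4 of the 29, and the class sums and floor-based folds with a transcript or control left out, were added after seeing the data. Over all its alternatives the log2 fold change of TCONS_00086882 ran from 1.98 (limma on log2(FPKM + 1), adjusted p = 0.34) to 5.52 (DESeq2), and it was 5.05 with limma on log2(FPKM + 0.01) (adjusted p = 0.27). With 1 library a side when a control is left out, counts of calls could not be had. No paired analysis was possible because the libraries that list these transcripts share a single replicate number between groups. An FPKM near the floor rests on a few reads, and 6 of the 55 transcripts had under 3 reads in every library.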
